A study of Mus musculus with 6 samples.

Results

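Followed here are 8 transcripts of fat cells in the gastrocnemius, a calf muscle, of aged mice: the adipokine genes Lep, Adipoq, Cfd and Retn, and the adipocyte identity genes Fabp4, Pparg, Cebpa and Car3. They were chosen by symbol in the deposited count tables, where all 8 were listed, each on 1 line, among 23238 distinct symbols. All 8 also passed the filter on low counts that left 11674 genes for testing. The mice were C57/BL6J WT animals, 26 months old, dosed by mouth for 30 days. The farnesol group (n = 3 libraries) received farnesol, a sesquiterpene alcohol, at 350 mg/kg. The vehicle group (n = 3) received 5% DMSO in saline of 0.85% NaCl. The 6 libraries held 9895700 to 12707751 counts each, and the titles call them biological replicates. The labels do not say whether mice were pooled, so p-values cover the spread among these libraries.

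White adipocytes store triglyceride and secrete hormones called adipokines. The nuclear receptor PPARγ and the transcription factor C/EBPα drive adipocyte differentiation and maintain each other's expression, and many genes of the mature fat cell, Adipoq and Fabp4 among them, are their targets; Lep is a target of C/EBPα. In skeletal muscle, adipocytes lie between fibres and fascicles and arise from fibro-adipogenic progenitors, mesenchymal cells that also give rise to fibroblasts. Some of these 8 genes have other homes: Fabp4 and Pparg are also used by capillary endothelium and macrophages, and Car3 is abundant in slow muscle fibres. In whole muscle, fewer cells of a type and less RNA per cell cannot be told apart.

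The start regions of 4 promoters are shown because their genes carry the results below: Lep and Retn, the pair whose groups separated, Adipoq, the adipokine they are set against, and the downstream promoter of Pparg, the start of its adipocyte-restricted isoform. The sequences are from RefSeq on GRCm38.p6 (the mm10 assembly), run from 250 bases before the start to 50 after it, and were found for 6 of the 8 genes. Searched on both strands were the C/EBP motif TTGCNNAA, the TATA box TATAAA, the CCAAT box CCAAT and the nuclear receptor core site AGGTCA. Capitals mark their matches, and in the 4 promoters shown no match overlapped one of another motif. Lep lies at chr6:29059971-29060270, Retn at chr8:3655520-3655819, Adipoq at chr16:23146286-23146585 and the Pparg promoter at chr6:115421816-115422115, all on the plus strand.
Lep: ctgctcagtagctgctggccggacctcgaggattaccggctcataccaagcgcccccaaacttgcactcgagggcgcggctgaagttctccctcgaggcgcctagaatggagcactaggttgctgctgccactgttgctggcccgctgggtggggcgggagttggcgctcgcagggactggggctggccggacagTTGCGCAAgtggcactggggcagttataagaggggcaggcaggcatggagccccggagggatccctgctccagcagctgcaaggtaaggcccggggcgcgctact
Retn: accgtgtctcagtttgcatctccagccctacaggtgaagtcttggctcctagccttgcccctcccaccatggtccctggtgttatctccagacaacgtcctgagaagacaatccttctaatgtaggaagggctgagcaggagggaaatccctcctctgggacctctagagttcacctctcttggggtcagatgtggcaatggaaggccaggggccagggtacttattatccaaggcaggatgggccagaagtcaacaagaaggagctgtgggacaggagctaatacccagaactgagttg
Adipoq: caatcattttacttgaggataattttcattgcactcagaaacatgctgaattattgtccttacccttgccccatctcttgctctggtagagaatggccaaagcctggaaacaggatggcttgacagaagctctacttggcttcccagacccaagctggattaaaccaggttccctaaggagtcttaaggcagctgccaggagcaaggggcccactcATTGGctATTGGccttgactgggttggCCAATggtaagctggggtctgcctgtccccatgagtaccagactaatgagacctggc
Pparg: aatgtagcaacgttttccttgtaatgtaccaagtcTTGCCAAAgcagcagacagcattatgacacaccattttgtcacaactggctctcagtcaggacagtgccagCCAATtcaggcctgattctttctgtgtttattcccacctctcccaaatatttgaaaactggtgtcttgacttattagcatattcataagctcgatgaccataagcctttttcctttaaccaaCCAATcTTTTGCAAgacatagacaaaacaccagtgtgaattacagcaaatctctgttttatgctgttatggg
The Lep promoter held the palindrome TTGCGCAA, a full C/EBP match on both strands, from position -55 to -48. The Pparg promoter held C/EBP matches at -215 to -208 and -16 to -9, and the promoters of Retn, Adipoq, Cfd and Cebpa held none. Of 32851 promoters of this length, 10.8% held a C/EBP match, 37.4% a CCAAT box, 13.6% a TATA box and 16.3% the receptor core site. No exact match to TATAAA or to the receptor core site was found in the 4 promoters shown, and variants of these motifs were not searched. The Lep sequence holds TATAAG, which differs from the searched box in its last base. Base composition was not shared: the Lep promoter was 66.0% G and C with 19 CpG, against 54.0% with 2 CpG in Retn and 50.0% with 0 CpG in Adipoq, where the median promoter had 52.7% and 7 CpG. The counts are of reads per gene, and do not say from which promoter a Pparg transcript started.

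The comparison of farnesol with vehicle asked whether these fat cell transcripts differ after 30 days of dosing. All 8 stood above vehicle on average, with a median log2 fold change of 0.29, against -0.01 over all genes tested, of which 49.1% stood above vehicle. Lep and Retn stood furthest from vehicle, at 2.04-fold and 1.83-fold, and were the 2 members whose farnesol values all lay above all vehicle values. In 4.75% of all genes tested the farnesol values lay above every vehicle value, and in 8.82% the groups did not overlap in either direction. By edgeR's quasi-likelihood test, with adjustment over all genes, 0 members and 0 of the 11674 genes (0%) passed 0.05, so none is called changed here. The adjusted p of each member was 0.99999. At an unadjusted p under 0.05 stood 2 of the 8, Lep and Retn, both above vehicle, and 1.75% of all genes in that direction (3.01% in both). The 8 genes were proposed with earlier results of these data known, so their shared direction is a description.

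**Figure D1:**
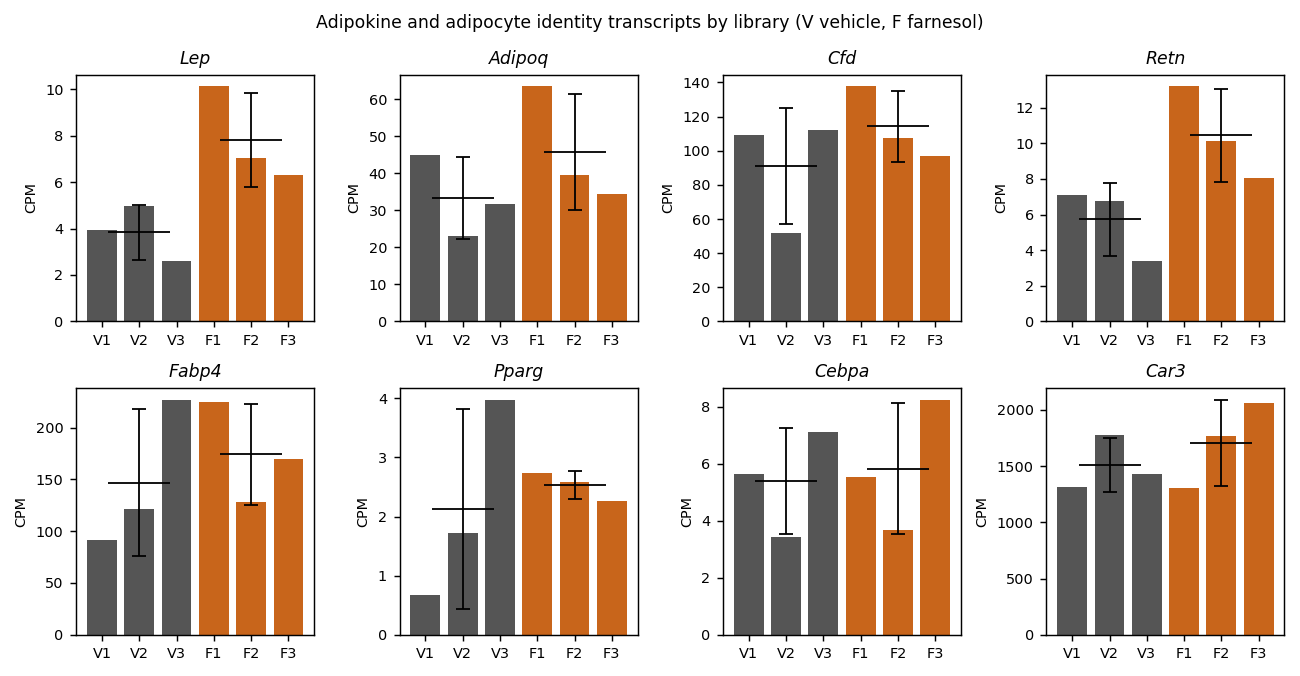
Level of each of the 8 transcripts in the 6 libraries, in CPM (counts divided by the scaled library size, linear axes from 0), as bars for vehicle (V, grey) and farnesol (F, orange) replicates, with the group mean and SD (n = 3) in black. The groups do not overlap for Lep and Retn, and overlap for the other 6 genes.

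Lep (chromosome 6, 29060221 to 29073876, mm10, plus strand) encodes leptin, the hormone by which fat stores reduce appetite through the hypothalamus. It had 41, 49 and 31 counts in vehicle replicates 1 to 3 and 115, 84 and 61 counts in farnesol replicates 1 to 3. In CPM, counts divided by the scaled library size, these were 3.93, 4.95 and 2.62 in vehicle and 10.1, 7.02 and 6.29 in farnesol. Every farnesol library lay above every vehicle library, and farnesol replicate 1 was the highest. The group means were 3.83 ± 1.17 CPM and 7.81 ± 2.04 CPM (SD, n = 3 each), or 2.04-fold with a 95% interval of 1.197 to 3.49 (log2 fold change 1.03, SE 0.37). The unadjusted edgeR p was 0.0111, the rank 52 among the 11674 genes, and the adjusted p was 0.99999.

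Retn (chromosome 8, 3655770 to 3659818, plus strand) encodes resistin, which in mice is secreted by adipocytes and opposes insulin action. It stood at 7.08, 6.77 and 3.39 CPM in vehicle and at 13.2, 10.1 and 8.04 CPM in farnesol, from 40 to 150 counts. As for leptin, the lowest library was vehicle replicate 3, the highest farnesol replicate 1, and the groups did not overlap. Its means were 5.75 ± 2.05 and 10.5 ± 2.60 CPM, a fold of 1.83 (95% interval 1.12 to 2.97). The unadjusted edgeR p was 0.0175, the rank 92, and the adjusted p was 0.99999. Without farnesol replicate 1 the log2 fold changes of Lep and Retn were 0.80 and 0.66, and without vehicle replicate 3 they were 0.82 and 0.59. Their unadjusted edgeR p was then 0.0796 and 0.106, and 0.0530 and 0.0956. Of the resistin-like genes, Retnla, a product of alternatively activated macrophages, stood at 34.2 CPM in vehicle and 22.0 in farnesol, with 58.9 CPM in vehicle replicate 3, its highest library. Retnlb had 0 counts in all libraries, which allows up to 0.251 to 0.309 CPM, and Retnlg 6 counts in vehicle and 13 in farnesol.

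Adipoq (chromosome 16, 23146536 to 23157968, plus strand) encodes adiponectin, an abundant fat cell hormone that raises insulin sensitivity and fatty acid oxidation. It stood at 45.1, 23.1 and 31.8 CPM in vehicle and at 63.6, 39.6 and 34.3 CPM in farnesol replicates 1 to 3, so that vehicle replicate 1 lay above farnesol replicates 2 and 3. The fold was 1.37 (95% interval 0.946 to 1.998). This value depended on which library was left out: its log2 fold change was 0.46 with all libraries and 0.15 without farnesol replicate 1. Leaving out vehicle replicate 1 gave 0.74, and vehicle replicate 2 gave 0.26.

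Cfd (chromosome 10, 79890853 to 79892655, plus strand) encodes adipsin, complement factor D, the protease that cleaves factor B in the alternative complement pathway. Its values were 109, 51.9 and 112 CPM in vehicle and 138, 108 and 97.2 CPM in farnesol. Vehicle replicate 2 was low and the other 5 libraries overlapped between the groups. The fold was 1.254 (0.862 to 1.82), and the log2 fold change of 0.33 became 0.05 without vehicle replicate 2 and 0.17 without farnesol replicate 1. Of 9 tested genes of the alternative pathway, 7 stood above and 2 below vehicle with a median log2 fold change of 0.12, and 0 had an unadjusted p under 0.05. The central component C3 had vehicle and farnesol means of 61.2 and 54.0 CPM (log2 difference -0.18, SE 0.18), its anaphylatoxin receptor C3ar1 at 8.43 and 6.10 CPM (-0.48, SE 0.40) and the membrane inhibitor Cd59a at 41.4 and 47.7 CPM (0.21, SE 0.21).

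Fabp4 (chromosome 3, 10204342 to 10208616, minus strand) encodes the fatty acid binding protein aP2 of adipocyte cytoplasm. It stood at 91.8, 122 and 227 CPM in vehicle and at 225, 128 and 170 CPM in farnesol. Vehicle replicate 3 was the highest of all 6 libraries and vehicle replicate 1 the lowest, so the farnesol range lay inside the vehicle range. The fold was 1.18 (0.661 to 2.12). Its log2 fold change ran from -0.0041 without vehicle replicate 1 to 0.71 without vehicle replicate 3, and was 0.02 without farnesol replicate 1. Of the other fatty acid binding proteins, 2 passed the count filter. Fabp3, the form of heart and muscle fibres, had means of 270 and 390 CPM (fold 1.44, 95% interval 1.08 to 1.93), and Fabp5 of 2.96 and 3.80 CPM. Both had overlapping groups: for Fabp3, vehicle replicate 3 at 337 CPM lay above farnesol replicate 2 at 281 CPM.

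Pparg (chromosome 6, 115360879 to 115490404, plus strand), the gene of PPARγ, was the least counted member, with 7, 17 and 47 counts in vehicle and 31, 31 and 22 in farnesol. These were 0.670, 1.72 and 3.98 CPM in vehicle and 2.73, 2.59 and 2.27 CPM in farnesol. The 3 farnesol libraries lay close together, between the second and the highest vehicle library. The fold of 1.18 had an interval of 0.494 to 2.84, and the log2 fold change of 0.24 (SE 0.61) ran from -0.18 without vehicle replicate 1 to 1.08 when vehicle replicate 3 was left out. A difference of that size was not detectable at this depth and spread. Its annotation overlaps an antisense gene in no exon.

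Cebpa (chromosome 7, 35119293 to 35121928, plus strand), the single-exon gene of C/EBPα, stood at 5.65, 3.44 and 7.11 CPM in vehicle and at 5.55, 3.68 and 8.24 CPM in farnesol. Each group held a low, a middle and a high library at similar values. The fold was 1.07 (0.609 to 1.88), and the sign of the log2 fold change of 0.10 turned without vehicle replicate 2 (-0.14) or farnesol replicate 3 (-0.23). An antisense gene shares 51 exonic bases with Cebpa, and as Tsix and Xist had nearly equal counts, reads of the 2 strands were probably not separated and its reads may be counted with Cebpa.

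Car3 (chromosome 3, 14863538 to 14872381, plus strand) encodes carbonic anhydrase III, an abundant cytosolic protein of both fat cells and slow fibres. It stood at 1316, 1775 and 1429 CPM in vehicle and at 1300, 1768 and 2057 CPM in farnesol. Farnesol replicate 1 was the lowest library and farnesol replicate 3 the highest. The fold was 1.13 (0.877 to 1.47), and the log2 fold change of 0.18 fell to 0.02 without farnesol replicate 3. Without farnesol replicate 1 it was 0.34. Car3 alone held 48186 of the vehicle counts and 55885 of the farnesol counts, so a summed level of the 8 genes mostly follows Car3.

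The library order of Car3 was unlike that of the secreted genes. Per unit of Adipoq, Car3 ran from 29.2 to 76.7 in vehicle and from 20.5 to 59.9 in farnesol, lowest in farnesol replicate 1, the library highest for Adipoq. Car3 was not parallel to the slow fibre genes either: the ratio of Car3 to 11 summed slow fibre genes was 0.591, 0.765 and 0.844 in vehicle and 0.613, 0.548 and 0.959 in farnesol. All 11 slow fibre genes stood above vehicle, with a median log2 fold change of 0.25, where 49.1% of all genes did. Relative to the 6 libraries their mean was -0.12, 0.55 and 0.06 in farnesol replicates 1 to 3 and -0.34 to -0.05 in vehicle. Farnesol values lay above every vehicle value for 1 of the 11, and for 4.75% of all genes. Of these genes, sarcolipin Sln had means of 15.2 in vehicle and 29.7 CPM in farnesol, the light chain Myl2 of 156 and 211 CPM, and slow troponin C, Tnnc1, of 132 and 181 CPM, all with overlapping groups. Among other carbonic anhydrases 7 were tested, 4 above and 3 below vehicle, with a median of 0.01. Car2 stood at 6.003 and 4.06 CPM, Car8 at 4.15 and 5.73 CPM and Car11 at 3.81 and 4.78 CPM.

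**Figure D2:**
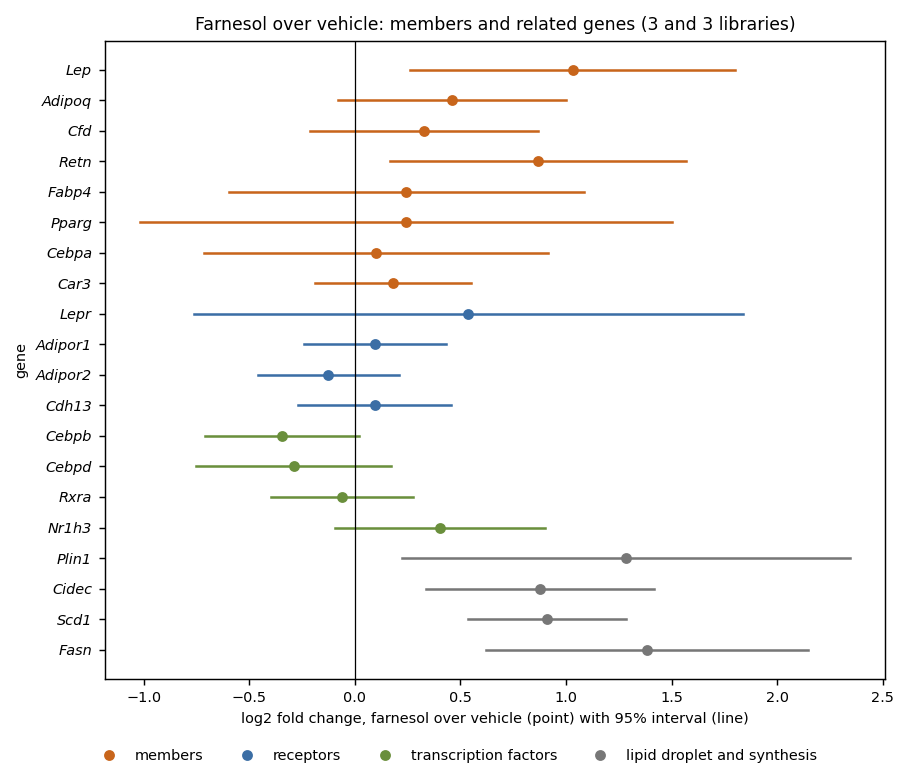
Log2 fold change of farnesol over vehicle (points) with 95% intervals (lines) from edgeR for the 8 members (orange), hormone receptors (blue), transcription factors (green) and genes of lipid droplets and fatty acid synthesis (grey), chosen with values known. Among the members the intervals of Lep and Retn lie above 0, and those of the other 6 include 0.

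Levels were compared between members in all 28 pairs over the 6 libraries, and the 3 pairs of highest r and the opposite relations of Car3 are given. Lep and Retn had nearly the same profile: on log2(CPM + 0.5), Pearson's r was 0.96 (exact permutation p = 0.00556, n = 6) and Spearman's rho 0.94 (exact permutation p = 0.0167). The r of deviations from the group means was 0.92, and r was 0.83 without the 2 libraries farthest from the median of Lep. The ratio of Retn to Lep lay between 1.28 and 1.80 in all 6 libraries. Both genes share each library's depth and scaling, and both are at low counts.

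Fabp4 and Pparg formed another pair, with an r of 0.87 (exact permutation p = 0.0181, n = 6) and a rho of 0.94 (exact permutation p = 0.0167). The r of deviations from the group means was 0.85, with 0.98 over the 3 vehicle and 0.27 over the 3 farnesol libraries, so it rested on the vehicle libraries. It was 0.62 without the 2 libraries farthest from the median of Fabp4. Vehicle replicate 3 was at the top for both genes and vehicle replicate 1 at the bottom. Adipoq and Cfd had an r of 0.86 (exact permutation p = 0.0361, n = 6) and a rho of 0.66 (exact permutation p = 0.175). This relation rested on the extreme libraries, vehicle replicate 2 and farnesol replicate 1, since r was 0.18 without them. Car3 ran opposite to Cfd and Adipoq. For Cfd and Car3, r was -0.53 (exact permutation p = 0.261, n = 6) and rho -0.89 (exact permutation p = 0.0333), with an r of deviations from the group means of -0.80 and an r of -0.85 without the 2 libraries farthest from the median of Cfd. For Adipoq and Car3, r was -0.60 (exact permutation p = 0.215, n = 6) and rho -0.71 (exact permutation p = 0.136), with values of -0.96 and -0.36 in the same order. None of the 28 pairs passed after Benjamini-Hochberg adjustment; the adjusted exact permutation p was 0.156 for Lep and Retn, 0.253 for Fabp4 and Pparg and 0.337 for Adipoq and Cfd, and for rho 0.233, 0.233 and 0.817. For Car3 with Cfd and with Adipoq the adjusted exact permutation p was 0.942 in both pairs for r, and 0.311 and 0.762 for rho.

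**Figure D3:**
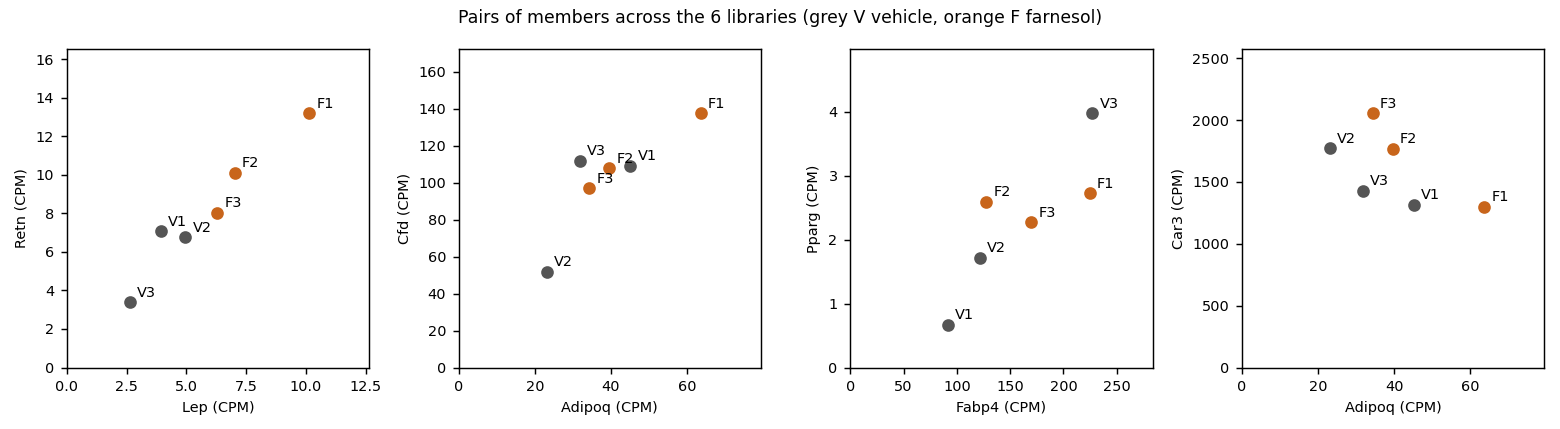
Levels of 4 pairs of members in CPM (linear axes from 0), 1 point per library, vehicle (V) in grey and farnesol (F) in orange with the replicate number. Lep and Retn lie along 1 line from vehicle replicate 3 to farnesol replicate 1, whereas Fabp4 and Pparg are both highest in vehicle replicate 3.

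Vehicle replicate 3 set these pairs apart, as it was lowest for Lep and Retn and highest for Fabp4 and Pparg. Per unit of Adipoq, Fabp4 stood at 2.04, 5.26 and 7.14 in vehicle and at 3.54, 3.22 and 4.95 in farnesol. The ratio of Lep to Adipoq was 0.0870, 0.214 and 0.0824 in vehicle and 0.159, 0.177 and 0.183 in farnesol. The farnesol libraries lay close together in this ratio, inside the vehicle range, so the order of Lep relative to Adipoq did not separate the groups.

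Markers of other cells moved with some of these values. In vehicle replicate 3 the 12 macrophage markers averaged 0.74 above the mean of the 6 libraries on the log2 scale, against -0.37 to 0.11 in the other libraries, and their summed level was 152 to 306 CPM in vehicle and 172 to 213 CPM in farnesol. Of these markers 11 of 12 stood below vehicle, with a median log2 fold change of -0.25, where 49.1% of all genes stood above vehicle. Farnesol values lay below every vehicle value for 2 of the 12, Adgre1 and Lyve1, and for 4.07% of all genes. The same 2 had an unadjusted edgeR p under 0.05, as did 1.26% of all genes in that direction. None of the 12 passed the adjusted threshold. The F4/80 gene Adgre1 stood at 5.93 in vehicle and 2.87 CPM in farnesol, Mpeg1 at 2.83 and 1.29 CPM and Lyve1 at 53.3 and 39.5 CPM. The mean log2 level of the 15 capillary endothelium markers was also highest in vehicle replicate 3, at 0.21. Their sum was 448 to 555 CPM in vehicle and 419 to 585 CPM in farnesol, and was highest in farnesol replicate 1. Of these 15 markers, 7 stood above and 8 below vehicle, with a median of 0.00. Pecam1 was at 32.3 and 36.6 CPM, Gpihbp1, which carries lipoprotein lipase into capillaries, at 13.7 and 17.3 CPM and the receptor Tek at 5.67 and 4.36 CPM. Muscle fibre markers were lowest in vehicle replicate 3, at -0.41, with a sum of 185626 CPM against 219171 to 276529 CPM elsewhere. Of 12 such markers 10 stood above vehicle, with a median of 0.08. Troponin T3 (Tnnt3) had means of 11808 and 14252 CPM, parvalbumin (Pvalb) of 5711 and 6931 CPM and slow myosin (Myh7) of 251 and 314 CPM. The part of these cells in the levels of Fabp4 and Pparg was not tested.

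Farnesol replicate 1, the highest library for Lep, Retn, Adipoq and Cfd, stood apart too. The ribosomal RNA precursor Rn45s took 4.97% of its counts and 9.92% to 15.4% of those of the others. Erythroid markers were highest there as well, at 0.52 above the 6-library mean, and summed to 3496 to 5675 CPM in vehicle and 5465 to 9712 CPM in farnesol. Of 6 such markers 5 stood above vehicle, with a median of 0.49, led by the globins Hbb-bs (1284 and 2372 CPM), Hba-a1 (2770 and 4700 CPM) and Hbb-bt (379 and 544 CPM), whose copies can share reads. The groups did not overlap for Hbb-bs alone, 1 of the 6, where 4.75% of all genes had farnesol higher without overlap. At an unadjusted edgeR p under 0.05 stood 4 of the 6, all above vehicle, and 1.75% of all genes in that direction. None of the 6 passed the adjusted threshold. In farnesol replicate 3 the mean of these markers, -0.29, lay within the vehicle range of -0.53 to 0.07. The part of these differences in the members' levels was not tested. Without Rn45s among the counts, and with the libraries scaled anew, the log2 fold changes of Lep and Retn were 1.03 and 0.87. Dropping this gene leaves the counts of all other genes as they were, so that fit does not test how the libraries differ.

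**Figure D4:**
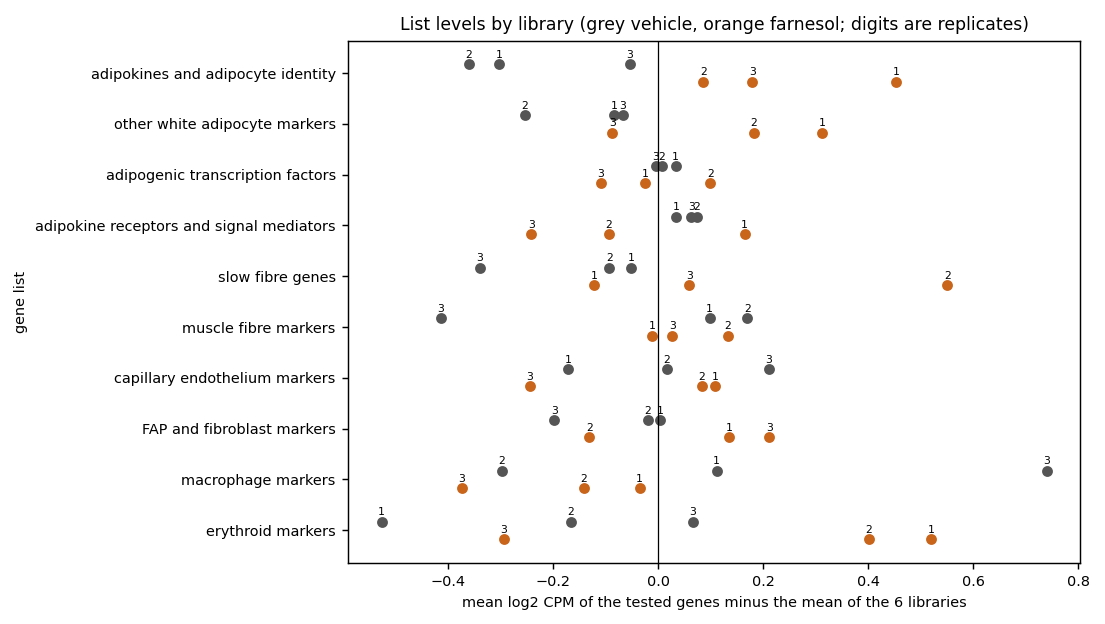
Mean log2 CPM of the tested genes of 10 lists in each library, relative to the mean of the 6 libraries (1 point per library, vehicle grey, farnesol orange, digits for replicates). Vehicle replicate 3 is lowest for muscle fibre markers and highest for macrophage markers, and farnesol replicate 1 is highest for the 8 adipokine and adipocyte genes.

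Other markers of white adipocytes were present, and 22 of 27 tested stood above vehicle with a median log2 fold change of 0.22. Of the 27, 5 had an unadjusted edgeR p under 0.05, all above vehicle, and 0 passed over all genes. The same held for 1.75% of all genes tested, and 4.75% had farnesol values above every vehicle value, as 6 of the 27 did. Plin1, the perilipin that coats the fat cell's droplet, stood at 2.68, 1.11 and 1.86 CPM in vehicle and at 7.39, 2.84 and 3.61 CPM in farnesol, with groups that did not overlap (fold 2.44, 95% interval 1.17 to 5.08). The values of Scd1, Fasn and Cidec, genes of fatty acid synthesis and the lipid droplet, were 52.8 and 99.2, 12.1 and 31.4, and 16.3 and 30.0 CPM, also without overlap. Against these, the lipase Lipe (log2 fold change 0.00, SE 0.22), lipoprotein lipase Lpl (0.17, SE 0.16) and the glycerol channel Aqp7 (-0.09, SE 0.33) lay near vehicle. Several genes of this list are also used by muscle fibres, and the mean of the list in farnesol replicate 3, -0.09, lay within the vehicle range.

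Of brown and beige fat markers, 6 of 9 tested stood above vehicle with a median of 0.08. Ucp1, the uncoupling protein that defines brown fat, had 0 counts in every library. Cidea stood at 0.957, 0.303 and 1.86 CPM in vehicle and at 2.55, 3.01 and 2.47 CPM in farnesol, from a mean of 20.7 counts, with groups that did not overlap (fold 2.53, 95% interval 0.952 to 6.71). Of the 9, 2 had all farnesol values above vehicle and 1 had all below, against 4.75% and 4.07% of all genes tested. Elovl3 stood at 4.45 and 2.95 CPM, and Cox8b, also a muscle gene, at 172 and 258 CPM.

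Of the regulators that act before or with PPARγ and C/EBPα, 7 of 20 stood above vehicle and 13 below, with a median log2 fold change of -0.06. None had an unadjusted edgeR p under 0.05. Cebpb, an early factor of adipogenesis, stood at 48.5, 47.2 and 47.7 CPM in vehicle and at 37.4, 42.6 and 32.8 CPM in farnesol. Its groups did not overlap, with farnesol lower, which held for 4.07% of all genes (fold 0.787, 95% interval 0.612 to 1.01). Nr1h3, the oxysterol receptor LXRα, stood at 14.3 and 19.0 CPM, with farnesol above vehicle in every library, and Stat5a at 7.61 and 11.2 CPM. Of the 20, 2 had all farnesol values above vehicle and 2 had all below, against 4.75% and 4.07% of all genes tested. The partner of PPARγ, Rxra, lay at 94.3 and 90.3 CPM (fold change of -0.06 on the log2 scale, SE 0.16).

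The receptors through which muscle reads these hormones were expressed at levels that did not differ detectably. Adipor1 and Adipor2, the adiponectin receptors, stood at 111 and 118 CPM and at 131 and 120 CPM, with log2 fold changes of 0.09 (SE 0.16) and -0.13 (SE 0.16). T-cadherin, Cdh13, which binds circulating adiponectin, was at 56.5 and 60.2 CPM. The leptin receptor Lepr had a mean of 24.8 counts per library, or 1.92 ± 1.05 and 2.81 ± 2.13 CPM (SD, n = 3 each), and its fold of 1.45 had an interval of 0.589 to 3.57. Of 12 receptors and mediators, 4 stood above and 8 below vehicle, with a median of -0.05. Ptpn1, the phosphatase that shuts off leptin and insulin signals, stood at 35.1, 41.0 and 32.8 CPM in vehicle and at 28.2, 28.2 and 24.1 CPM in farnesol. Its farnesol values all lay below vehicle (fold 0.739, 95% interval 0.563 to 0.972), as did those of 4.07% of all genes. At an unadjusted p under 0.05 it was 1 of the 12, and 1.26% of all genes stood there in that direction. The proposed resistin receptors Cap1 and Tlr4 stood at 12.69 and 8.72 CPM and at 5.26 and 3.54 CPM, both with overlapping groups. Tlr4 was at 6.16, 3.93 and 0.515 CPM in farnesol replicates 1 to 3, so replicate 3 lowered its farnesol mean.

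Fibro-adipogenic progenitor and fibroblast markers, of the cells from which muscle adipocytes arise, numbered 10 above and 4 below vehicle, with a median of 0.17. Of all genes tested, 49.1% stood above vehicle. Mfap5 stood at 14.3 and 22.0 CPM and Dpt at 28.5 and 36.9 CPM, both without overlap, and Smoc2 at 79.6 and 92.9 CPM. Farnesol values lay above every vehicle value for these 2 of the 14 markers, and for 4.75% of all genes tested. Their summed level was 1362 to 1640 CPM in vehicle and 1457 to 1790 CPM in farnesol.

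The genes most like the members over the 6 libraries were sought among 6020 others with a mean of at least 10 CPM, by Pearson's r with the mean standardised profile of the 8 members. These were Ndufc2, a complex I subunit (r = 0.976), Cdo1 (0.970), Tmem14c (0.968), the peroxiredoxin Prdx2 (0.964) and the ephrin Efnb1 (0.961). With 6 libraries and so many candidates, high values are common, and the libraries share depth and makeup. Cdo1, cysteine dioxygenase, stood at 7.47, 5.96 and 11.7 CPM in vehicle and at 23.2, 11.8 and 13.4 CPM in farnesol. The profile was higher in each farnesol library than in any vehicle library, so genes chosen for likeness to it stand above vehicle by that choice. The members themselves ran from r = 0.01 for Car3 and 0.42 for Cebpa to 0.69 for Cfd and Fabp4 against their own mean profile.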

How the data were processed

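RNA of whole gastrocnemius (500 ng) was made into Lexogen QuantSeq libraries, which read tags near the 3′ end, per the labels' protocols. The authors deposited 1 table of raw counts of reads by gene symbol for each library; Bowtie2, bedtools and mm10 are named, without versions or roles, in the submitters' processing notes. Annotation, strand handling and treatment of copied reads: not given in the sources used here. Tsix counts were 95.9% to 99.0% of those of Xist, its antisense partner, so strands were probably not separated. No replicate pair agreed within sampling noise (chi-square per degree of freedom at least 13.5).

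Repeated symbols (35) were summed. edgeR 4.0.16 in R 4.3.3 was fitted to all 6 libraries: filterByExpr, TMM factors, a robust glmQLFit, and glmQLFTest for the group. Benjamini-Hochberg adjustment covered 11674 genes, with a threshold of 0.05. Standard errors were derived from the log2 fold change and F, and 95% intervals from the t distribution. CPM uses TMM-scaled library sizes, and a count of 0 allows up to 3 counts (counting error only). On simulated counts with 3 libraries a group and 11358 genes, 51% of genes changed 2-fold and 77% of those changed 4-fold were recovered, with 17 false calls among 145. That false share was above the threshold of 0.05. The changed genes were drawn from all genes tested, so these rates are not those of any single member. Correlations used exact two-sided permutation (scipy 1.17.1).

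The members and lists were chosen with earlier results of these data known. Named are the members, up to 3 genes of smallest unadjusted p per list, and the 5 genes most like the members; Plin1, Lipe, Lpl, Aqp7, Ucp1, Rxra, Adipor1, Adipor2, Cdh13, Lepr, Retnlb and Retnlg were added after their values were seen. Alternatives were DESeq2 1.42.0, its size factors, other filters, a replicate block, exclusion of Rn45s and leaving out each library. The labels do not say whether replicates of the same number were paired. Correlations of deviations from the group means were 0.04, 0.06 and -0.02 for vehicle and farnesol libraries of the same number. For libraries of unlike number they ran from -0.07 to 0.04, so these values do not settle it.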

Additional observations from a re-analysis of the deposited data

How the results depend on the processing

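No member passed an adjusted p of 0.05 under any of the 12 alternatives, where the members' adjusted p ran from 0.968 upwards. The count of genes past that threshold was 0 with all 6 libraries (351 at an unadjusted p under 0.05), 13 without a filter beyond 1 count, 0 to 3 with each library left out (3 without vehicle replicate 2) and 0 in the other alternatives, DESeq2's test included (416 at an unadjusted p under 0.05). Lep, Retn, Adipoq, Cfd and Car3 stayed above vehicle in all 12. With each library left out, the log2 fold change ran from -0.0041 to 0.71 for Fabp4 and from -0.18 to 1.08 for Pparg, both lowest without vehicle replicate 1, and from -0.23 to 0.35 for Cebpa. Cebpa lay below 0 in the fit lacking farnesol replicate 3 and in that lacking vehicle replicate 2 (-0.14). The members' median log2 fold change of 0.29 ran from 0.18 without farnesol replicate 1 to 0.55 without vehicle replicate 3, and 6 to 8 members stood above vehicle with a library left out. With 5 libraries the group of 2 borrows its spread from the fit. The replicate block gave a median of 0.42, a Pparg value of 0.52 and again 0 calls, and changed no call at an adjusted p. At an unadjusted edgeR p Adipoq moved from 0.0904 to 0.0204 (0.0188 without a filter and no block). So 3 members rather than 2 stood under 0.05, and the count over all genes rose as well. It was 428 of 11674 with the block and 633 of 16624 without a filter, against 351 of 11674 in the main fit. The titles share only a number, and the labels do not say whether replicates were paired. Pparg fell under the filter of 5 CPM. Low counts limit Pparg, Lep, Cebpa and Retn most, with means of 25.8, 63.5, 60.7 and 88.3 counts per library.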
